A study of Arabidopsis thaliana with 20 samples.

Results

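Glutathione S-transferases were examined in rosettes of Arabidopsis thaliana by RNA sequencing. The family was taken as 46 named genes among the 33602 genes of the count files: 28 of the tau class (GSTU1 to GSTU28), 13 of the phi class (GSTF2 to GSTF14), 2 of the zeta class (GSTZ1 and GSTZ2) and 3 of the theta class (GSTT1 to GSTT3). Membership rested on locus identifiers and on no measured value. Whole rosettes, 3 weeks old, came from the double mutant wrky25 wrky33, from the mutant wrky75 and from the wild type Col-0. Plants of each genotype were exposed to 350 ppb ozone for 2 h or were kept without ozone as control. Each mutant had 3 ozone and 3 control libraries and Col-0 had 4 of each, and every library held a pool of 5 rosettes.

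Glutathione S-transferases join the tripeptide glutathione to reactive, electrophilic compounds, and transporters of the ABCC type carry the conjugates into the vacuole. The tau and phi classes are large in plants and respond to pathogens, herbicides and oxidants, whereas zeta and theta members also occur in animals. Ozone breaks down in the leaf to reactive oxygen species. WRKY factors, to which the mutated genes belong, are transcription factors of defence that bind a short DNA element called the W-box. The TGA factors, of the bZIP family, bind an element with the core TGACG, which is found in promoters of some glutathione S-transferase genes.

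The libraries held 20486137 to 20771667 counts each. The mutated genes did not verify the labels, since their transcripts were counted in the libraries labelled as mutant and where in these genes the mutations lie is not stated in the material used. WRKY25 (AT2G30250) was at 176 to 223 CPM (the count relative to the library's TMM-scaled total, per 1e6) in the wrky25 wrky33 ozone libraries, against 104 to 144 CPM in Col-0 ozone libraries. WRKY33 (AT2G38470) was at 224 to 426 CPM against 320 to 730 CPM in the same groups, and WRKY75 (AT5G13080) was at 28 to 72.8 CPM in wrky75 ozone libraries against 48 to 129 CPM in Col-0 ozone libraries. Genotypes are therefore those of the labels. All 5 markers of leaf mesophyll were present, with a summed level of 13441 to 26430 CPM in ozone libraries and 35141 to 47382 CPM in control libraries, and the part of this difference in the results was not tested. Of the markers of other organs, 4 of 5 root markers, 3 of 4 flower markers and 4 of 4 seed markers stayed under 1 CPM in every library, with 2 seed markers at 0. The exceptions were PYK10 of the root list, at 23.3 to 41.4 CPM in ozone and 16.6 to 79.8 CPM in control libraries, and AG of the flower list, at up to 1.25 CPM in ozone and 2.72 CPM in control libraries. In whole rosettes, fewer cells of a type and less RNA per cell cannot be told apart.

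The members share gene structures that follow the classes. All 28 tau genes had 2 exons in the RefSeq annotation of TAIR10.1, phi genes had 2 to 5, theta genes 7 to 8 and both zeta genes 10. The predicted tau proteins had 217 to 254 residues, and the phi proteins 208 to 281. The theta proteins GSTT2 and GSTT3 had 591 and 590 residues, against 245 in GSTT1. Of the 46 genes, 34 lay in 11 tandem clusters, taken as members of a class with at most 20000 bases between neighbours. The largest was the run GSTU1 to GSTU7 on chromosome 2, with 7 genes on the minus strand within 14.6 kb (TAIR10.1, 12617936 to 12632538). The run GSTU19 to GSTU23 on chromosome 1 held 5 genes in 20.6 kb, and GSTF4 to GSTF7 on chromosome 1 held 4 genes in 7.9 kb. Proteins of the same cluster were 48.3% to 93.8% identical.

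Because wrky25 and wrky33 are lesions in W-box-binding factors, the letters of the promoters are shown first for the members whose transcripts were lower in wrky25 wrky33 than in Col-0 under ozone: GSTU3, GSTU9, GSTU10, GSTU11, GSTU12 and GSTF3. GSTF7 is added because it had the most W-boxes of all members, 3, and GSTU7 because it had the most matches to the TGACG core, also 3. In GSTU7 the stretch TGACGTCA was counted as a match on each strand, and these matches overlap. Each line gives the 250 bases before the start of the gene in the RefSeq annotation of TAIR10.1, in the direction of transcription. Capitals mark the matches to 3 short words, on either strand. The first form of the W-box searched was TTGACC. The other form of the W-box ended in another base and was TTGACT. The core bound by TGA factors was searched as TGACG. On the strand shown, a match to the opposite strand appears as the reverse complement of its word. All 8 genes are on the minus strand, at chr2:12629641-12629890, chr5:25089627-25089876, chr1:28024861-28025110, chr1:26338819-26339068, chr1:26335631-26335880, chr2:852322-852571, chr1:659981-660230 and chr2:12618900-12619149 in the order shown.
GSTU3: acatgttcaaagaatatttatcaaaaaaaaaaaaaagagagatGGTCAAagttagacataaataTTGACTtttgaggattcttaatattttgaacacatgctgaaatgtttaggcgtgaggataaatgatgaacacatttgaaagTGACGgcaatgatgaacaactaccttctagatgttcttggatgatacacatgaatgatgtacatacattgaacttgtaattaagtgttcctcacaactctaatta
GSTU9: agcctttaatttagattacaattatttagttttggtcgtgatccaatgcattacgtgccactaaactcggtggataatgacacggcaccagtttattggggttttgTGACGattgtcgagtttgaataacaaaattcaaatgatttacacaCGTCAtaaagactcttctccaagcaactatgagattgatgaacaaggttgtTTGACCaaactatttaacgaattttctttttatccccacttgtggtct
GSTU10: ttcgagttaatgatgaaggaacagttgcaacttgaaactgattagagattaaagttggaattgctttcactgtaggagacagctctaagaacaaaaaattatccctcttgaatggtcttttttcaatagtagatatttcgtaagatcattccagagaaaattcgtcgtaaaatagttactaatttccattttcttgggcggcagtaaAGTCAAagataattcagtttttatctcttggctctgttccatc
GSTU11: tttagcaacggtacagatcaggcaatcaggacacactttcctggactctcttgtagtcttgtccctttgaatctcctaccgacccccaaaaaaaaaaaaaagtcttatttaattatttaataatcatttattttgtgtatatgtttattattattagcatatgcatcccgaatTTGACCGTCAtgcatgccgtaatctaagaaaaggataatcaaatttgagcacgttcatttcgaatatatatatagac
GSTU12: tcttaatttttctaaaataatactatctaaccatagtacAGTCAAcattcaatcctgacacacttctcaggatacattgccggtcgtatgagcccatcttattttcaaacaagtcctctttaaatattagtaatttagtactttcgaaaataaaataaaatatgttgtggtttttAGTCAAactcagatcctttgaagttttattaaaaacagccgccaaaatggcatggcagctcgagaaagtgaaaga
GSTF3: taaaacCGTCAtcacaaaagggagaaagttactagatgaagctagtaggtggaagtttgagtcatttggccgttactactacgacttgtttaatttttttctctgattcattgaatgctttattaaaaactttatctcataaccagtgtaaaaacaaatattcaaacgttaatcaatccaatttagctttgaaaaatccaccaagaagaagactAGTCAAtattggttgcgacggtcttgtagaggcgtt
GSTF7: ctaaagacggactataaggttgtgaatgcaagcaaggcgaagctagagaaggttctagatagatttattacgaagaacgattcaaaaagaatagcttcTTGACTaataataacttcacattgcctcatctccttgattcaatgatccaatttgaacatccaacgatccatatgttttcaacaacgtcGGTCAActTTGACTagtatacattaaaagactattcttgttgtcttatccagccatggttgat
GSTU7: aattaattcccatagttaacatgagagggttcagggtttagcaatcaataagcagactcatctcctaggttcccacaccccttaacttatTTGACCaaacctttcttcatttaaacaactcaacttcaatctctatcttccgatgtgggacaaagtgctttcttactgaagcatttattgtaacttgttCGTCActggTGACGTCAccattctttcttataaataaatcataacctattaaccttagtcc

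A W-box was found in these 250 bases in 21 of 46 members (45.7%), against 28.4% of 27443 promoters of the annotation. The 95% interval of the members' share was 30.9% to 61%. With 50 bases after the start added, 32.4% of all promoters held a W-box, which lies inside this interval. TGACG was found in the 250 bases of 15 members (32.6%, 95% interval 19.5% to 48%), against 18.6% of all promoters. All 6 members lower in wrky25 wrky33 under ozone held a W-box, against 13 of the 35 other members tested, and 4 of the 6 held TGACG, against 11 of the 35. All 6 are also among the members called higher under ozone in Col-0, and of the other 18 of these, 9 held a W-box and 8 held TGACG. With the replicate block nested in treatment, described with the mutants, 11 of the 14 members called lower held a W-box, against 3 of the 10 called higher and 5 of the 17 not called. The 14 are all among the 24 members called higher under ozone in Col-0, of which 15 held a W-box. Of the 10, GSTU16, GSTU17, GSTU18, GSTU22, GSTU23 and GSTU27 are not. This block was added after the data had been seen, and the share over all genes was not counted for it. The counts with this block are therefore not a result about the W-box. In GSTU11 the W-box and TGACG overlapped, and this was the only member with such an overlap. Of the 24 members called higher under ozone in Col-0, 15 held a W-box and 12 held TGACG, against 2 and 2 of the 12 called lower. Over all genes a W-box was present in 34.7% of those called higher and 23.7% of those called lower, and TGACG in 20% and 18.5%. The W-box of GSTF3 began 36 bases before the RefSeq start, that of GSTU10 43 bases and that of GSTU9 48 bases. The W-boxes of GSTU3 began 186 and 207 bases before it. The count files place some starts further downstream, so distances and windows depend on the annotation. For GSTF3 the start is at 852222 in the files and 852321 in RefSeq, and for GSTU10 at 28024726 and 28024860. Among all tested genes with a promoter, a W-box was present in 39% of the 744 called lower in wrky25 wrky33 under ozone and in 28% of the 18298 not called. A match of letters is not a bound site, and a W-box was also present in members not called between wrky25 wrky33 and Col-0 under any fit, such as GSTU1 and GSTU5.

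The summed level of the 46 members was 12007 to 13664 CPM in wrky25 wrky33 ozone libraries, against 2692 to 3006 CPM in its control libraries. In wrky75 it was 14693 to 16638 CPM under ozone and 3058 to 3291 CPM in control, and in Col-0 12747 to 16929 CPM under ozone and 2919 to 3407 CPM in control. In every genotype the ozone libraries lay above all control libraries. The family thus took 1.26% to 1.78% of the counts of Col-0 ozone libraries, against 0.282% to 0.363% in Col-0 control libraries. The make-up of the sum differed between the treatments. Phi members made up 78.3% to 81.7% of it in Col-0 ozone libraries against 43.1% to 47.3% in Col-0 control libraries, while tau members made up 17.4% to 20.8% against 49.2% to 53.5%. GSTF2, GSTF6, GSTF7 and GSTF8 alone gave 67.6% to 73.3% of the sum in Col-0 under ozone, against 12% to 21.8% in control.

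**Figure D1:**
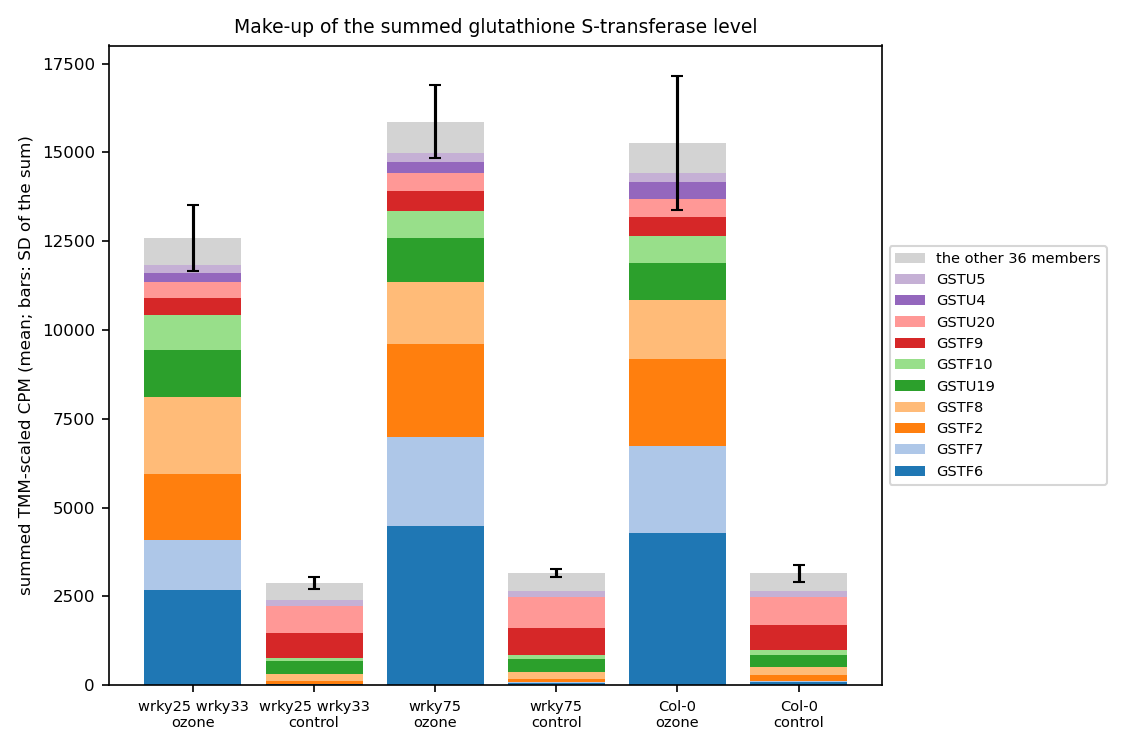
Mean summed level of the family in each group (TMM-scaled CPM), stacked by the 10 most abundant members, with the 36 others in grey; error bars are the SD of the sum over 3 or 4 libraries. The Col-0 bars stand at 15262 CPM under ozone and 3150 CPM in control, and the wrky25 wrky33 ozone bar stands at 12585 CPM.

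Levels per kb of exon, the scale on which genes can be compared, gave a different leader in each treatment. The exon lengths came from the RefSeq annotation, whose gene bounds often differ from those of the counted genes. In GSTF2 the length used, 1471 bases, exceeded the whole counted span (1110452 to 1111660). The same held for GSTU20 (1147 bases, counted span 29484269 to 29485290) and GSTF7 (1213 bases, counted span 658657 to 659771). It held for further members as well, among them GSTU4, GSTU5 and GSTU24. Levels per kb of such members are too low, and the order of members with close values is uncertain. In Col-0 ozone libraries GSTF6 (AT1G02930), which acts in camalexin synthesis, led with 3603 ± 397 CPM per kb, followed by GSTF7 with 2027 ± 258 and GSTF2 with 1674 ± 344 (SD, n = 4 for each). The values of GSTF7 and GSTF2 did not differ beyond their spread. The highest tau member under ozone was GSTU19 (AT1G78380), an enzyme active on many xenobiotics, with 924 ± 296 CPM per kb. In Col-0 control libraries the leaders were GSTU20 (AT1G78370), linked to jasmonate signalling and glucosinolate synthesis, with 671 ± 80 CPM per kb and GSTF9 (AT2G30860) with 584 ± 57.7 CPM per kb (SD, n = 4), which lay within their spread. GSTZ1 (AT2G02390) and GSTT1 (AT5G41210) led the zeta and theta classes in both treatments. In CPM, GSTU19 stood at 781, 1177, 1436 and 744 in Col-0 ozone libraries and at 370, 359, 326 and 330 in Col-0 control libraries. GSTF9 stood at 659, 419, 565 and 558 CPM under ozone and at 744, 656, 671 and 810 CPM in control. GSTU20 stood at 649, 328, 453 and 569 CPM under ozone, against 744, 716, 713 and 906 CPM in control. The 2 treatments did not overlap in GSTU19 and GSTU20, and overlapped in GSTF9.

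**Figure D2:**
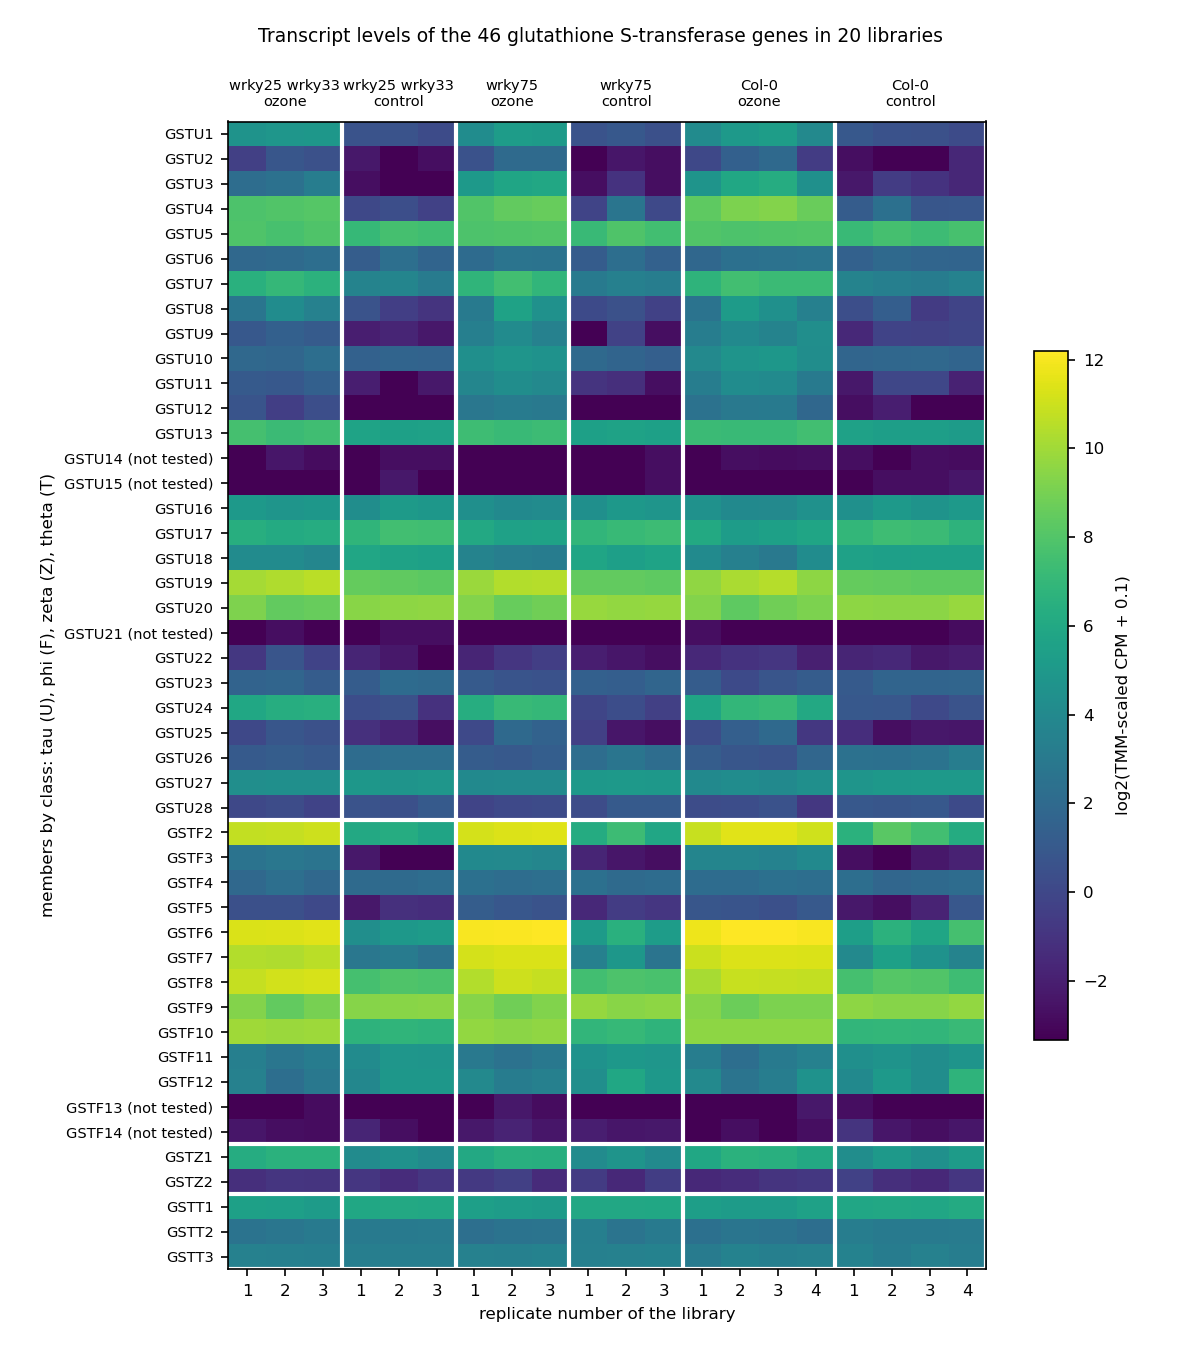
Level of all 46 members in all 20 libraries as log2(TMM-scaled CPM + 0.1), with members in rows by class and libraries in columns by group and replicate number. GSTF2, GSTF6, GSTF7 and GSTF8 turn bright under ozone, whereas GSTU20 and GSTF9 are the brightest in control libraries, and the 5 members not tested are dark throughout.

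Of the members, 41 passed the filter on low counts and were tested among 19954 genes. GSTU14 (12 counts over all 20 libraries), GSTU15 (7), GSTU21 (5), GSTF13 (7) and GSTF14 (39) were not tested. A member is said to be called where edgeR's quasi-likelihood test gave an adjusted p under 0.05, with the Benjamini-Hochberg adjustment made across the whole table. Ozone changed most of the family in Col-0: 24 of 41 tested members were called higher and 12 lower, where 33.3% of all tested genes were called higher and 36.4% lower. The median log2 fold change was 1.57 over the members tested and −0.08 over all genes tested. By class, 16 of 25 tau members rose and 7 fell, 7 of 11 phi members rose and 3 fell, 1 of 2 zeta members rose, and 2 of 3 theta members fell and none rose. Of the called members, 22 rose by at least 2-fold (log2 fold change of 1 or more) and 5 fell by as much. The ozone libraries lay above all control libraries in 22 members, as in 29.3% of all tested genes, and below all of them in 8, as in 30% of all tested genes. With upper-quartile scaling the median of all genes shifted from −0.08 to −0.281, the share of calls that were higher moved from 47.7% to 37.2%, and the small increases of GSTU5 and GSTU6 were no longer called.

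Tau members on chromosome 2 rose throughout their cluster. In the run GSTU1 to GSTU7 all 7 genes were called higher under ozone in Col-0, by log2 fold changes of 0.48 to 7.48. GSTU4 (AT2G29460) had 332, 568, 633 and 397 CPM in Col-0 ozone libraries, against 2.16, 5.16, 1.71 and 1.73 CPM in Col-0 control libraries. Every ozone library was thus far above every control library, and the log2 fold change, 7.48 ± 0.55 (± gives the SE for all fold changes), was the largest increase of the family (adjusted p = 1.46e-09). Its neighbour GSTU3 (AT2G29470) had 25.6, 59.5, 78.9 and 22.3 CPM under ozone, against 0.1, 0.573, 0.391 and 0.228 CPM in control. The groups were again far apart (7.14 ± 0.55, adjusted p = 2.43e-09). GSTU2 (AT2G29480) was the least abundant gene of the run, at 0.929, 2.64, 3.93 and 0.574 CPM under ozone and at 0.0502, 0, 0 and 0.228 CPM in control. The groups did not overlap, but the control libraries held few counts (4.71 ± 0.82, adjusted p = 5.36e-05). GSTU1 rose by 4.23 ± 0.32 and GSTU7 by 3.79 ± 0.20 on the log2 scale, whereas GSTU5, the most abundant member of the run in control, rose by 0.48 ± 0.15 and GSTU6 by 0.66 ± 0.26. The call of GSTU6 was also lost when any of 6 Col-0 libraries was left out.

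Other tau members that rose strongly lay on chromosomes 1, 3 and 5. GSTU24 (AT1G17170), which acts on the explosive TNT and other xenobiotics, had 55.8, 125, 140 and 66.6 CPM in Col-0 ozone libraries, against 1.81, 1.72, 0.979 and 1.5 CPM in control libraries. No ozone library came near the control range (6.01 ± 0.37, adjusted p = 1.28e-10). GSTU12 (AT1G69920) had 5.67, 7.52, 8.36 and 3.5 CPM under ozone, against 0.0502, 0.143, 0 and 0 CPM in control. The groups did not overlap, and the fold (6.86 ± 0.53, adjusted p = 3.36e-08) is set by 4 counts in all Col-0 control libraries. Its tandem neighbour GSTU11 rose by 4.66 ± 0.44, GSTU9 by 4.47 ± 0.42, GSTU8 by 3.92 ± 0.65, GSTU10 by 2.76 ± 0.19, GSTU13, an enzyme of indole glucosinolate metabolism, by 1.92 ± 0.10 and GSTU19 by 1.58 ± 0.19 on the log2 scale. GSTU25, the neighbour of GSTU24, rose by 3.88 ± 0.78.

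Among phi members, the rise was carried by genes that were already detectable and became very abundant. GSTF3 and GSTF5 were called higher as well but stayed at low levels. GSTF7 (AT1G02920) had 1991, 2632, 2628 and 2583 CPM in Col-0 ozone libraries, against 15.5, 45, 24.1 and 12.3 CPM in control libraries. GSTF6 had 3609, 4631, 4584 and 4269 CPM under ozone, against 40.6, 100, 55.2 and 195 CPM in control. Neither gene had overlapping groups, and their log2 fold changes were 6.66 ± 0.48 (adjusted p = 1.01e-09) and 5.45 ± 0.45 (adjusted p = 7.09e-09). GSTF3 (AT2G02930) had 13, 13.3, 11.7 and 16.5 CPM under ozone, against 0.0502, 0, 0.0979 and 0.182 CPM in control. It thus rose by 7.24 ± 0.33 on the log2 scale (adjusted p = 3.14e-12), the second largest increase, from 7 counts over the 4 control libraries. GSTF2, which binds indole compounds such as camalexin, rose by 3.90 ± 0.40, GSTF8, a long-used marker of the oxidant response, by 2.90 ± 0.20, GSTF10, a partner of the receptor kinase BAK1, by 2.57 ± 0.10, and GSTF5 by 1.57 ± 0.57. The groups of GSTF5 overlapped, and its call was lost without Col-0 control replicate 1, 2 or 3. GSTF4, in the cluster of GSTF5 to GSTF7, was at 4.3 to 5.26 CPM under ozone and 3.44 to 4.72 CPM in control, with a log2 fold change of 0.20 ± 0.13 and no call.

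Zeta and theta members moved by less than the leading tau and phi members. GSTZ1, the maleylacetoacetate isomerase of tyrosine breakdown, had 61.2, 94.9, 89.1 and 65.8 CPM in Col-0 ozone libraries, against 19.3, 33.9, 22.2 and 35.9 CPM in control libraries. It was higher in every ozone library than in every control library (1.48 ± 0.20, adjusted p = 3.83e-06). Its tandem neighbour GSTZ2 was at 0.47 CPM or less under ozone and 0.702 CPM or less in control and was not called. Theta members are peroxisomal enzymes that reduce organic hydroperoxides. GSTT1 had 41.9, 36.2, 36.2 and 46.7 CPM under ozone, against 58, 63.4, 57.5 and 70.7 CPM in control. All ozone libraries were lower (−0.63 ± 0.10, adjusted p = 2.26e-05), and GSTT2 was lower by a similar log2 fold change of −0.62 ± 0.14, while GSTT3 was at 0.01 ± 0.10 and was not called.

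Members that fell did so by less than the leading members rose. GSTU18 (AT1G10360) had 17.2, 10.8, 7.54 and 18.8 CPM in Col-0 ozone libraries, against 47.5, 42.4, 44.3 and 46 CPM in control libraries. Its neighbour GSTU17 (AT1G10370, also named ERD9), which acts in light and drought responses, had 69.1, 38.1, 45.7 and 55.9 CPM under ozone, against 126, 166, 153 and 105 CPM in control. In both genes the groups were apart, with log2 fold changes of −1.73 ± 0.20 (adjusted p = 6.29e-07) and −1.40 ± 0.20 (adjusted p = 5.46e-06). GSTU26 (AT1G17190) had 2.3, 1.71, 1.46 and 3.34 CPM under ozone, against 5.37, 5.2, 5.92 and 9.42 CPM in control. GSTF11 (AT3G03190), an enzyme of aliphatic glucosinolate synthesis, had 9.64, 4.69, 8 and 11 CPM under ozone, against 20.7, 25.4, 19.8 and 25.6 CPM in control. Both lay lower in every ozone library, by −1.56 ± 0.23 (adjusted p = 7.71e-06) and −1.46 ± 0.21 (adjusted p = 7.1e-06). GSTU27 (AT3G43800) had 16.1, 18.5, 16.4 and 21 CPM under ozone, against 27.4, 30.7, 32.5 and 34 CPM in control. The groups did not overlap (−0.79 ± 0.09, adjusted p = 2.46e-07).

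In 2 further members the call of a decrease rested on single libraries. GSTF12 (AT5G17220, TRANSPARENT TESTA 19), needed for the accumulation of anthocyanins in the vacuole, had 16, 6.15, 9.6 and 24.1 CPM in Col-0 ozone libraries, against 16.4, 32.3, 19.3 and 111 CPM in control libraries. The groups overlapped, and the log2 fold change of −1.69 ± 0.55 (adjusted p = 0.0111) became −0.68 without Col-0 control replicate 4 and was no longer called. GSTU23 (AT1G78320) had 2.2, 1.03, 1.6 and 2.19 CPM under ozone, against 2.01, 3.15, 3.08 and 3.19 CPM in control. Its groups overlapped through control replicate 1 (−0.71 ± 0.25, adjusted p = 0.0179), and its call was lost without Col-0 control replicate 4 or ozone replicate 2. GSTU20 (−0.62 ± 0.20), GSTU16 (−0.55 ± 0.19) and GSTF9 (−0.39 ± 0.17) were called lower as well, and without Col-0 control replicate 4 the count of decreases was 8 instead of 12, with GSTF9, GSTF12, GSTU16, GSTU20 and GSTU23 lost and GSTU28 gained.

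Direction differed between close neighbours. In the run GSTU19 to GSTU23, GSTU19 rose, GSTU20 and GSTU23 fell, and GSTU22, at 0.157 to 0.457 CPM under ozone and 0.0979 to 0.239 CPM in control, was not called. GSTU20 was at 27.8% to 83.1% of the level of GSTU19 in Col-0 ozone libraries, against 200% to 275% in Col-0 control libraries. GSTF10 rose while GSTF9 had a weak decrease, whose call was lost with DESeq2, with RLE factors, without the filter, in the fit of only the Col-0 groups and without any of 6 of the 8 Col-0 libraries. GSTF9 was at 55.8% to 86.5% of the level of GSTF10 under ozone, against 528% to 622% in control. GSTU24 and GSTU25 rose while GSTU26 fell. GSTU17 and GSTU18 fell together, as did GSTT1 and GSTT2.

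**Figure D3:**
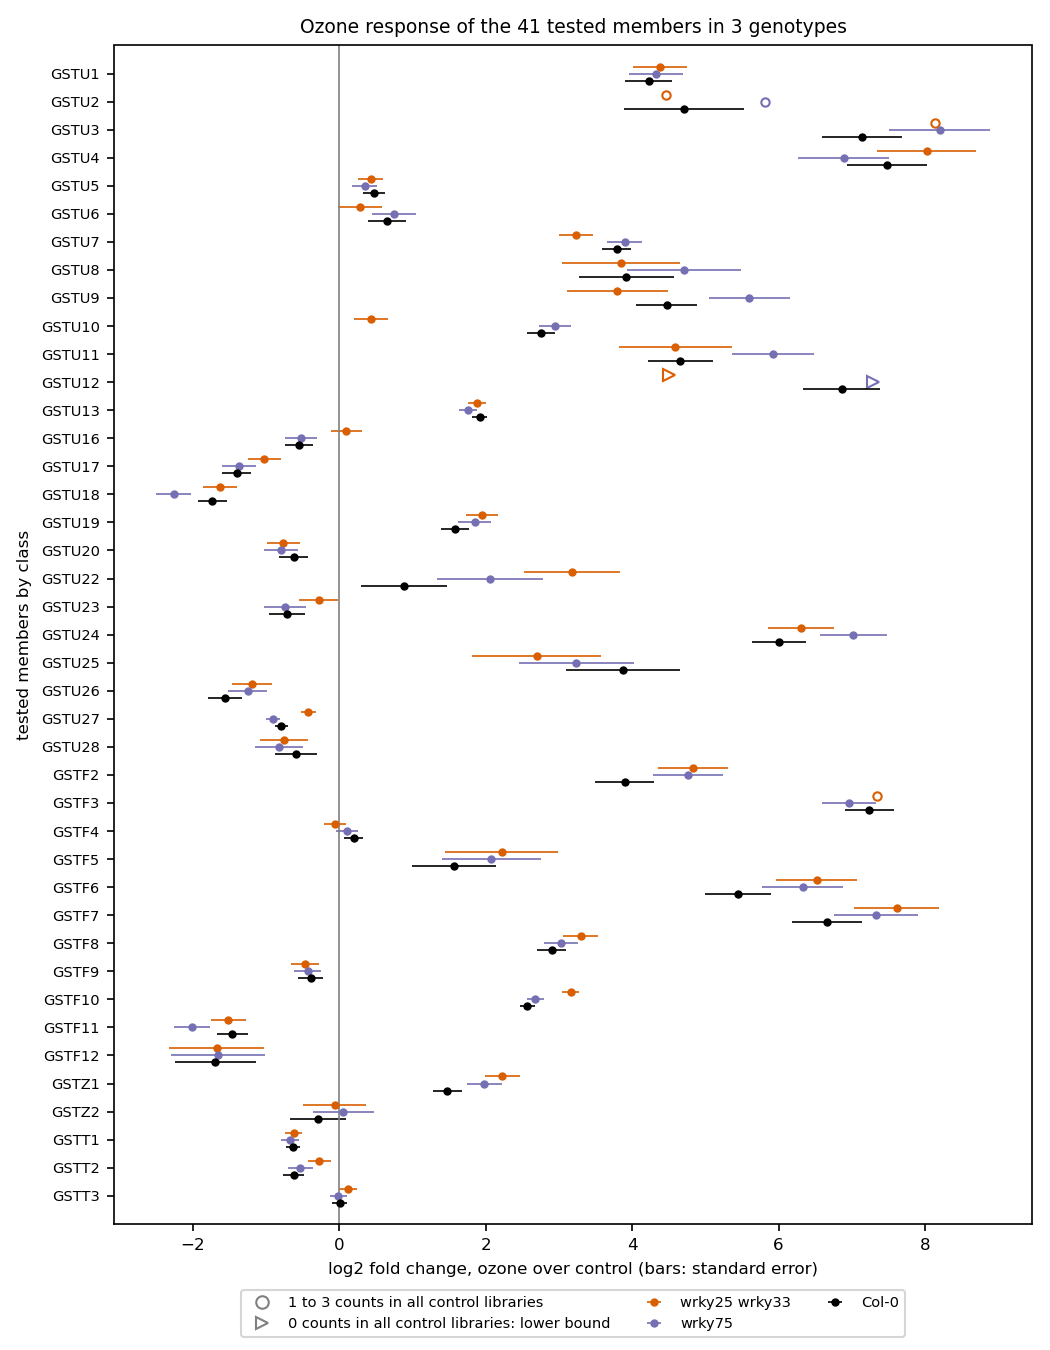
Log2 fold change of ozone over control for the 41 tested members, by class, in wrky25 wrky33 (orange), wrky75 (purple) and Col-0 (black), with standard errors as bars. Open circles had 1 to 3 counts in all control libraries of their genotype, and open triangles are lower bounds where control libraries were at 0. GSTU10 lies at 0.44 in wrky25 wrky33, against 2.95 in wrky75 and 2.76 in Col-0.

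Ozone changed most members in both mutants as well. In wrky25 wrky33, 23 of 41 tested members were called higher and 9 lower, where 31.1% and 33.9% of all tested genes were called higher and lower. In wrky75, 24 were called higher and 12 lower, against 32% and 36.1% of all tested genes. The median log2 fold change of the members was 1.95 in wrky25 wrky33 and 1.98 in wrky75, also with GSTU12 set at its bound, against −0.09 and −0.11 over all tested genes. GSTU12 was at 0 counts in all control libraries of both mutants, against 74 counts in the wrky25 wrky33 ozone libraries, at least 22.8-fold higher, and 482 counts in the wrky75 ozone libraries, at least 157-fold higher. These bounds use a floor of 3 counts over the control group. GSTU3 stood at 4.55, 5.4 and 9.28 CPM in wrky25 wrky33 ozone libraries and had 1 count in all 3 of its control libraries. GSTF3 had 2 counts and GSTU2 had 3 counts in the control libraries of wrky25 wrky33. GSTU4 rose by 8.02 ± 0.68 in wrky25 wrky33 and by 6.89 ± 0.62 in wrky75, GSTF7 by 7.61 ± 0.58 and 7.33 ± 0.57, and GSTU24 by 6.31 ± 0.45 and 7.02 ± 0.46.

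Decreases in the mutants were of the same order of size as in Col-0. GSTU18 had 17.8, 17.6 and 13.8 CPM in wrky25 wrky33 ozone libraries, against 57.6, 49.7 and 45.3 CPM in its control libraries. In wrky75 it had 12.4, 10 and 9.18 CPM under ozone, against 56.6, 44.1 and 50.7 CPM in control. No library of either treatment overlapped, and the log2 fold changes were −1.63 ± 0.23 in wrky25 wrky33 and −2.26 ± 0.24 in wrky75. GSTF11 fell by 1.51 and 2.01 on the log2 scale in wrky25 wrky33 and in wrky75, and GSTU17 by 1.02 and 1.37. GSTF12 had 11, 4.85 and 7.3 CPM in wrky25 wrky33 under ozone, against 14.6, 29.6 and 29.5 CPM in control. That call was lost without control replicate 2 or 3 or ozone replicate 2 or 3 of the mutant. GSTU22, not called in Col-0, was called higher in wrky25 wrky33 (3.18, adjusted p = 0.000317) and in wrky75 (2.06, adjusted p = 0.0178), at levels under 1 CPM in all Col-0 libraries. The call in wrky75 was lost in the fit of only its own groups and without its control replicate 3 or ozone replicate 3. The response of GSTU22 was not called as different from that of Col-0 in either mutant, with or without a block.

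Summed levels by cluster are given here as a description, without a test, beginning with the phi cluster GSTF4 to GSTF7. It summed to 4085 ± 304 CPM in wrky25 wrky33, 6986 ± 316 CPM in wrky75 and 6738 ± 776 CPM in Col-0 under ozone (SD, n = 3, 3 and 4). In control it summed to 41 ± 8.2 CPM, 76.1 ± 44.9 CPM and 127 ± 69.1 CPM in the same order. The cluster GSTU1 to GSTU7 summed to 628 ± 29.8 CPM in wrky25 wrky33 ozone libraries and to 957 ± 200 CPM in Col-0 ozone libraries, and GSTU11 with GSTU12 to 3.29 ± 0.699 CPM and 19.4 ± 7.15 CPM in these groups (SD, n = 3 and 4). GSTU24 to GSTU26 had means of 80.7 and 101 CPM. The means of the other clusters were higher in wrky25 wrky33. They were 1770 against 1536 CPM in GSTU19 to GSTU23 and 1466 against 1308 CPM in GSTF9 with GSTF10. GSTU17 with GSTU18 stood at 94.3 against 65.8 CPM and GSTU15 with GSTU16 at 29.8 against 19.4 CPM. GSTU13 with GSTU14 was at 174 against 156 CPM. The zeta pair was at 90.5 against 78.1 CPM and the theta run at 58.6 against 56.2 CPM. GSTF10 stood at 1005, 914 and 979 CPM in wrky25 wrky33 ozone libraries, against 761, 750, 764 and 754 CPM in Col-0 ozone libraries. It lay above Col-0 in every library (0.35 ± 0.10, adjusted p = 0.053, not called), and it was called higher with DESeq2 and with upper-quartile factors.

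Under ozone 6 members differed between wrky25 wrky33 and Col-0, and all 6 were lower in the mutant. Of all tested genes, 5.33% were called in this comparison, against 6 of 41 members. Calls over all genes leaned lower as well, with 753 lower and 311 higher. Mutant libraries lay below all Col-0 libraries in 9 members and above them in 5, against 7.34% and 5.86% of all tested genes. GSTU3 had 4.55, 5.4 and 9.28 CPM in wrky25 wrky33 ozone libraries, against 25.6, 59.5, 78.9 and 22.3 CPM in Col-0 ozone libraries. GSTU9 (AT5G62480) had 1.85, 2.59 and 2.07 CPM in the mutant, against 9.44, 16.6, 12.4 and 20.3 CPM in Col-0. In both genes every mutant library lay below every Col-0 library, with log2 differences of −2.86 ± 0.43 (adjusted p = 0.000409) and −2.76 ± 0.40 (adjusted p = 0.000272). GSTU11 (AT1G69930) had 2.04, 1.85 and 2.57 CPM in wrky25 wrky33, against 9.34, 18.3, 16.9 and 8.25 CPM in Col-0. Its tandem neighbour GSTU12 had 1.56, 0.646 and 1.22 CPM in the mutant, against 5.67, 7.52, 8.36 and 3.5 CPM in Col-0. These groups did not overlap either (−2.61 ± 0.40, adjusted p = 0.000488, and −2.45 ± 0.36, adjusted p = 0.000922). GSTF3, the only phi member of the 6, had 5.92, 7.16 and 6.08 CPM in wrky25 wrky33, against 13, 13.3, 11.7 and 16.5 CPM in Col-0. It was lower by a smaller amount, −1.09 ± 0.21 on the log2 scale (adjusted p = 0.00335).

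GSTU10 (AT1G74590) was the member whose ozone response itself differed. It had 3.65, 3.42 and 4.82 CPM in wrky25 wrky33 ozone libraries, against 2.78, 3.05 and 2.94 CPM in the control libraries of the mutant. In Col-0 it had 15.6, 26.6, 29.9 and 19 CPM under ozone, against 3.21, 3.53, 3.62 and 3.05 CPM in control, and in wrky75 21, 26.9 and 24.2 CPM, against 3.77, 3.06 and 2.46 CPM. The Col-0 and wrky75 ozone libraries thus stood well above every other library. The log2 fold change under ozone was 0.44 ± 0.23 in wrky25 wrky33 (adjusted p = 0.101, but called higher in the fit of only the groups compared) and 2.76 ± 0.19 in Col-0, and the difference between them was −2.32 ± 0.30 (adjusted p = 0.000592). Under ozone the mutant was lower than Col-0 by −2.52 ± 0.21 (adjusted p = 5.63e-07). Over all tested genes 0.957% were called in the difference of response, against 1 of 41 members, and 6 members were under 0.05 before adjustment, as were 9.07% of all tested genes. In the other 5 members that were lower under ozone, control levels were under 1 CPM in every library of both genotypes, so that a difference between their responses rests on few counts. None of these 5 was called in the difference of response, which was −0.07 in GSTU11. The log2 difference of GSTU11 in control was −2.55, not called. In control the mutant libraries lay below all Col-0 libraries in GSTU3 and GSTU9, and overlapped them in GSTU11, GSTU12 and GSTF3. A lower level under ozone is thus not shown to be a weaker response in these 5.

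**Figure D4:**
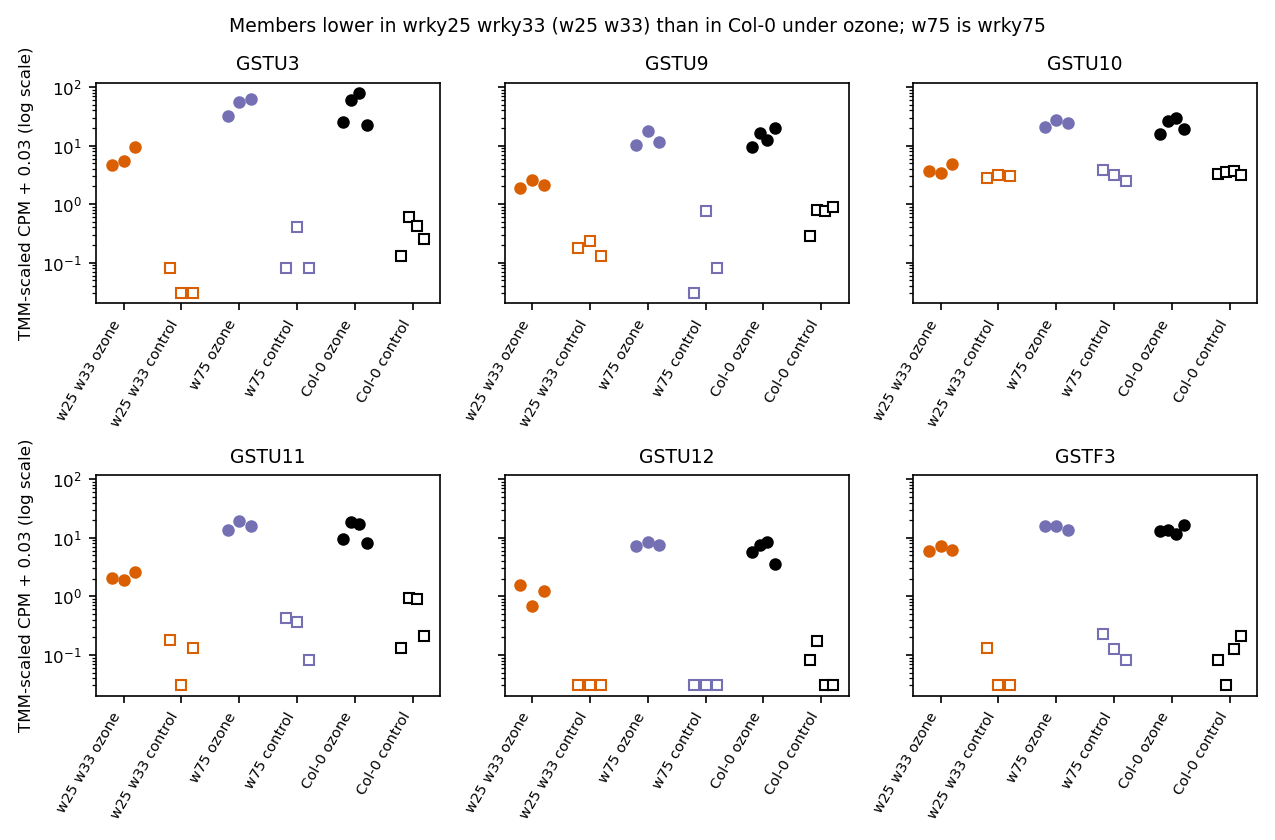
Level of the 6 members lower in wrky25 wrky33 than in Col-0 under ozone, as TMM-scaled CPM plus 0.03 on a log axis, with 1 point per library; filled circles are ozone and open squares control libraries. In each panel the 3 filled orange points (wrky25 wrky33) lie below all filled black points (Col-0), and in GSTU10 they lie at 3.42 to 4.82 CPM, near its control libraries.

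Libraries with the same replicate number deviated together within a treatment, so the mutants were also compared with the replicate number as a block. In same-numbered libraries, the level in wrky25 wrky33 under ozone was 0.178, 0.0908 and 0.118 times that of Col-0 in GSTU3, and 0.457, 0.539 and 0.52 times in GSTF3. GSTU10 stood at 0.234, 0.129 and 0.161 times the Col-0 level. All 3 ratios were below 1 in 18 of the 41 members and above 1 in 13. The same count was not made over all tested genes, so these numbers are not a result about the family. With the replicate number as a block over all libraries, the 6 members kept their calls and GSTF10 (0.39 ± 0.09), GSTU16 (0.69 ± 0.20) and GSTU27 (0.28 ± 0.08) were called higher in wrky25 wrky33, where 12% of all tested genes were called. With a replicate block nested in treatment, added after the data had been seen, 14 members were called lower and 10 higher, where 23.4% of all tested genes were called. The further members called lower were GSTU2 (−1 ± 0.26), GSTU4 (−0.97 ± 0.16), GSTU25 (−0.90 ± 0.27), GSTF7 (−0.79 ± 0.19), GSTU8 (−0.72 ± 0.19), GSTF6 (−0.66 ± 0.17), GSTU7 (−0.46 ± 0.10) and GSTU24 (−0.40 ± 0.12). Those called higher were GSTU22 (1.35 ± 0.35), GSTU23 (0.80 ± 0.24), GSTU16 (0.70 ± 0.09), GSTU17 (0.65 ± 0.10), GSTU18 (0.51 ± 0.13), GSTF8 (0.45 ± 0.08), GSTF10 (0.35 ± 0.06), GSTU27 (0.30 ± 0.07), GSTU19 (0.26 ± 0.08) and GSTU13 (0.22 ± 0.07). In the difference of response, the block over all libraries called GSTF10 (0.59 ± 0.13) beside GSTU10, and the nested block called 7 members higher and GSTU10 lower, where 8.53% of all tested genes were called.

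**Figure D5:**
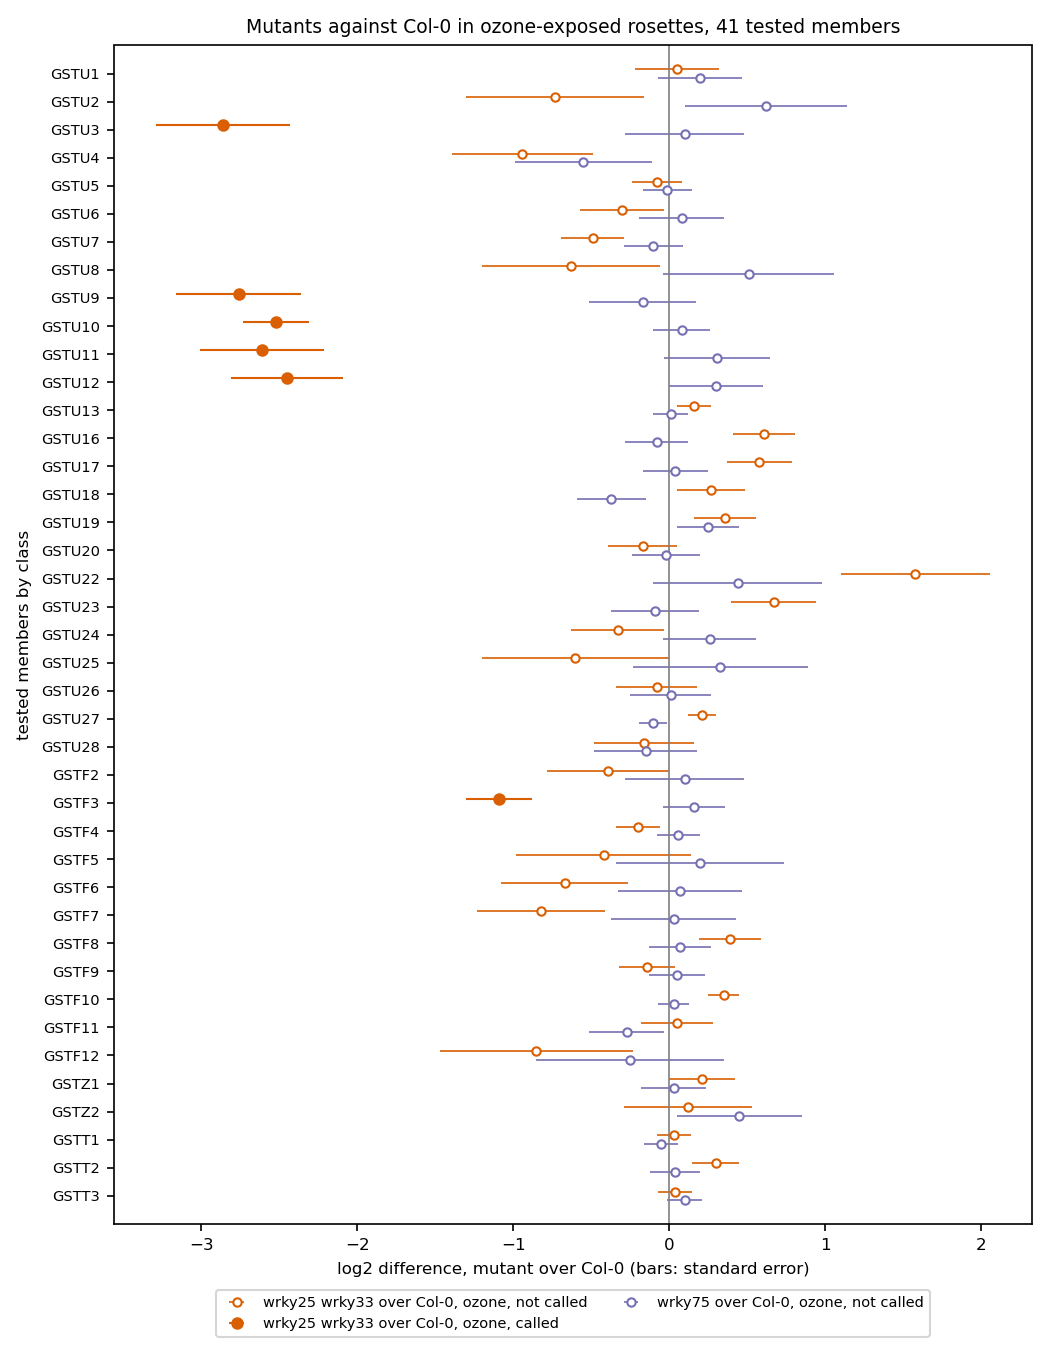
Log2 difference of each mutant from Col-0 in ozone libraries for the 41 tested members, from the fit without a block, with standard errors as bars; filled points passed the adjusted threshold. The 6 filled points, all of wrky25 wrky33 (orange), lie at −1.09 (GSTF3) to −2.86 (GSTU3), while the wrky75 values (purple) lie between −0.55 and 0.62.

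In control rosettes no member differed between wrky25 wrky33 and Col-0 by edgeR's quasi-likelihood test, where 0.0251% of all tested genes were called, and 9 members were under 0.05 before adjustment, as were 3.42% of all tested genes. DESeq2 called GSTF6 and GSTF7 lower in the mutant. GSTF7 had 7.05, 8.65 and 5.67 CPM in wrky25 wrky33 control libraries, against 15.5, 45, 24.1 and 12.3 CPM in Col-0 control libraries. GSTF6 had 20.5, 31 and 36.5 CPM in the mutant, against 40.6, 100, 55.2 and 195 CPM in Col-0. GSTF2 had 65.3, 78.8 and 53.4 CPM, against 94.2, 305, 184 and 75.8 CPM. The mutant libraries lay below all Col-0 libraries in GSTF6 and GSTF7, and the groups overlapped in GSTF2. The log2 differences were −1.76 ± 0.45 for GSTF7 (adjusted p = 0.75), −1.74 ± 0.43 for GSTF6 (adjusted p = 0.75) and −1.32 ± 0.40 for GSTF2 (adjusted p = 1). With the replicate block nested in treatment these 3 members were called lower, by −1.91 ± 0.25, −1.06 ± 0.19 and −1.45 ± 0.23, where 0.266% of all tested genes were called. Mutant libraries lay below all Col-0 libraries in 8 members and above them in 0, against 2.32% and 2.09% of all tested genes. The 8 were GSTU3, GSTU4, GSTU9, GSTU10, GSTU26, GSTF6, GSTF7 and GSTF10. Of the members lower under ozone, GSTU3, GSTU9 and GSTU10 were thus also below Col-0 in control, whereas GSTU11, GSTU12 and GSTF3 overlapped it. Control means were 0.146 against 0.634 CPM per kb in GSTU9 and 2.53 against 2.91 in GSTU10. GSTU3 had 1 count in the mutant control libraries.

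In wrky75 no member was called against Col-0, in control or under ozone, where 0.0251% of all tested genes were called in each comparison. By edgeR 0 members were under 0.05 before adjustment in either, and DESeq2 called 0. The libraries of both genotypes overlapped in all 41 tested members in both treatments, as in 97.7% of all tested genes under ozone and 95.2% in control. Under ozone the log2 differences ran from −0.55 for GSTU4 to 0.62 for GSTU2. GSTU3 had 31.8, 56.3 and 62.3 CPM in wrky75 ozone libraries and GSTU11 13.7, 19.5 and 15.8 CPM, and both overlapped the Col-0 range. In GSTU10 the log2 difference was 0.08 ± 0.18, in GSTU3 0.10 ± 0.38 and in GSTF3 0.16 ± 0.20. The difference between the ozone responses of wrky75 and Col-0 was called for no member, where 0% of all tested genes were called, with 0 members under 0.05 before adjustment and 0 called by DESeq2. All comparisons with Col-0 share the Col-0 libraries.

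Reads of near-identical members could have been split between them by the counting. The proteins of GSTF6 and GSTF7 were 93.8% identical and those of GSTF2 and GSTF3 92.5%, so their separate values are uncertain. Of all stretches of 50 bases in the exons of GSTF6, 13.1% occurred also elsewhere in the nuclear genome or in the transcript of another member. The share was 9.2% in GSTF7, 2.5% in GSTF2 and 3.5% in GSTF3. It was 3.7% in GSTT1, 5.9% in GSTT2 and 7.7% in GSTT3. The coding sequences of these theta members were 89.3% to 91.3% identical, so their separate values are uncertain too. GSTF3 was at 0.289% to 0.401% of the level of GSTF2 in wrky25 wrky33 ozone libraries, 0.407% to 0.755% in Col-0 ozone libraries and 0% to 0.24% in Col-0 control libraries. GSTF7 was at 55.2% to 60.5% of GSTF6 in Col-0 ozone libraries and 6.29% to 45% in Col-0 control libraries. The kit does not mark the strand, and GSTU7 overlaps AT2G29410 and GSTF4 overlaps AT1G02952 on the opposite strand, so reads of each pair could not be told apart. GSTF8 overlaps AT2G47720 on its own strand.

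Other genes of glutathione conjugation were described from a list of 26, of which 25 were tested. In Col-0 under ozone 15 were called higher and 7 lower, where 33.3% and 36.4% of all tested genes were called higher and lower. Both genes of glutathione synthesis rose, GSH2, the glutathione synthetase, by 3.13 ± 0.11 and GSH1, the first enzyme of the path, by 0.49 ± 0.08 on the log2 scale. Of the vacuolar ABCC transporters 3 of 6 rose, led by ABCC3 (2.17 ± 0.19) and ABCC4 (2.17 ± 0.24), and ABCC1 (−0.30 ± 0.08) and ABCC14 (−1.54 ± 0.18) fell. Of the genes that process conjugates, 3 of 3 tested rose, including GGT1 (2.66 ± 0.23). Of the other classes with the same fold GSTL1, a lambda member, rose by 6.41 ± 0.48 and DHAR2, a dehydroascorbate reductase, by 2.1 ± 0.21, and 4 of 7 fell. Of the TGA factors and their partner SCL14, 5 of 7 rose, led by TGA3 (2.14 ± 0.13). In wrky25 wrky33 under ozone, GGT4 (−0.97 ± 0.24, adjusted p = 0.0224) and GSH2 (−0.42 ± 0.11, adjusted p = 0.0259) were lower than in Col-0, and none of the 25 was higher, where 5.33% of all tested genes were called.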

How the data were processed

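RNA of whole rosettes was measured in 20 libraries of 6 groups, which the labels name by genotype, treatment and replicate. The authors deposited raw counts of reads for each gene, and the submitters' processing notes name FastQC, TopHat2, SAMtools, HTSeq and the build TAIR10. No version or setting of these tools is stated in the sources used here, nor how multi-mapping reads were counted. Totals of 20486137 to 20771667 are nearly equal, and no step that would make them so is stated. The p-values measure the spread between pools of rosettes, which the labels call biological replicates (they speak of 3, while Col-0 has 4 libraries per treatment). Floors of 3 counts cover counting error only.

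From these counts the following was computed in R 4.3.3, using edgeR 4.0.16 (with limma 3.58.1): filterByExpr on the 6 groups (19954 genes left), TMM factors, 1 fit of all 20 libraries with group means, quasi-likelihood F-tests for 9 comparisons and Benjamini-Hochberg adjustment over all tested genes at 0.05. The biological coefficient of variation was 17.2%. A standard error is the log2 fold change divided by the root of F. DESeq2 1.42.0 was an alternative, as were other scaling factors, no filter, fits of the compared groups alone, left-out libraries and replicate blocks. The procedure was tested on simulated data. Members and lists were chosen with earlier results of these data known.

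Values in every library are given for the 8 members with the largest called increases and the 8 with the largest called decreases under ozone in Col-0, for members called in a mutant against Col-0 or in a difference of response, and for the member with the highest level per kb in each class. GSTF2 in control was added after its values were seen. Sequences, exons and positions came from RefSeq's TAIR10.1, whose nuclear chromosomes are those of the files' build. The gene bounds often differ, and of 32835 nuclear genes in both, 10599 had the same start and end. Protein identities came from global alignments.

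Same-numbered libraries of a mutant and Col-0 deviated together within a treatment (correlations of 0.101 to 0.531 over 6 pairs in control and 0.397 to 0.705 over 6 pairs under ozone), so their numbers were taken as pairs there. Across treatments the 27 correlations ran from −0.137 to 0.271 with 9 over 0.1, and the numbers were not taken as pairs.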

Additional observations from a re-analysis of the deposited data

Results flagged for a closer look

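In groups of 4 libraries, 9 of 82 sets of values had a library far from the others by Dixon's criterion (the gap to the nearest library over the range), and chance gives such a library in about 1 in 20 groups. Of the 9, 5 were replicate 4 of Col-0. In Col-0 control replicate 4, GSTF12 stood at 111 CPM (others 16.4 to 32.3), GSTF5 at 1.73 CPM (others 0.0477 to 0.196), GSTU20 at 906 CPM (others 713 to 744) and GSTU26 at 9.42 CPM (others 5.2 to 5.92). In Col-0 ozone replicate 4, GSTU13 stood at 177 CPM (others 148 to 150). GSTU4 was high in Col-0 control replicate 2, at 5.16 CPM (others 1.71 to 2.16), and GSTU23 was low in Col-0 control replicate 1, at 2.01 CPM (others 3.08 to 3.19). Under ozone in Col-0, GSTU5 was low in replicate 2, at 232 CPM (others 247 to 250), and GSTF7 was low in replicate 1, at 1991 CPM (others 2583 to 2632).

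The ozone response of GSTU10 differed between wrky25 wrky33 and Col-0 by −2.32 on the log2 scale, by the test of the difference itself.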

How the results depend on the processing

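For ozone against control within a genotype, the counts of members called were within 1.5 times of those given under all alternatives run. This did not hold for wrky25 wrky33 against Col-0 under ozone, where the nested block called 24 members and the main fit 6. When single libraries were left out, Col-0 had 22 to 24 members higher and 8 to 12 lower, wrky25 wrky33 21 to 23 and 7 to 9, and wrky75 22 to 25 and 8 to 12. The 6 members lower in wrky25 wrky33 under ozone were called in every alternative, with 0 to 1 members higher when libraries were left out, and GSTU10 was called in the difference of response in every alternative. DESeq2 called 2 members between wrky25 wrky33 and Col-0 in control and 2 in the difference of their responses. With a replicate block over all libraries, 2 members were called in that difference. The replicate block nested in treatment called 3 members in control, 24 under ozone and 8 in the difference of response, and the cause was not tested. Neither block called a member in wrky75 against Col-0. For ozone against control, where the numbers were not taken as pairs, the replicate block over all libraries gave 24 members higher and 13 lower in Col-0. Of 352 log2 values of named members under alternatives, 352 kept their direction. The calls of GSTF12 (−0.68 without Col-0 control replicate 4, −1.05 without replicate 4 of both Col-0 groups) and GSTU23 (−0.62 without Col-0 control replicate 4, −0.52 without Col-0 ozone replicate 2) were lost. In the window that adds 50 bases after the start, 39.1% of members held TGACG and 45.7% a W-box, against 23.1% and 32.4% of all promoters. Depth limits members under 1 CPM, of which GSTU2, GSTU3, GSTU12 and GSTF3 had 0 to 3 counts in a whole control group.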
